A study of Mus musculus with 6 samples.

Results

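Elastic fibre genes were examined in whole lungs of *Tnrc6a* null and wild type (WT) mouse embryos. The set was fixed as *Eln*, *Fbn1*, *Fbn2*, *Fbln5*, *Efemp2*, *Lox*, *Loxl1*, *Ltbp4*, *Mfap4* and *Mfap5*, 10 genes that encode elastin, microfibril proteins, assembly proteins and cross-linking enzymes. A gene was measured where a probe set of the array was annotated to it alone, and the probe set with the brightest mean stood for the gene. By this rule 8 of the 10 genes had a value, among 19938 genes in all, each from 1 probe set. *Fbn1* and *Efemp2* were not analysed here. Expression was measured in 3 *Tnrc6a* null lungs (homozygous for a gene trap insertion of β-galactosidase, labelled as the *Tnrc6a* (GW182) mutant) and 3 WT lungs, all from C57Bl/6 embryos at E18.5, with 1 embryo on each Affymetrix whole-transcript array. The insertion is present in every cell of the embryo, and whole lung mixes epithelium, mesenchyme, vessels and blood, so that fewer cells of a type and less RNA per cell cannot be told apart. Values are given as deposited, on a log scale. The labels name base 2, but the base could not be settled from the values, so differences are *Tnrc6a* null minus WT on that scale and are not turned into folds.

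An elastic fibre consists of a core of cross-linked elastin laid down on a scaffold of fibrillin microfibrils. Fibulins and latent TGF-β binding proteins bring soluble elastin to the scaffold, and lysyl oxidases join its lysines into a network that can stretch and recoil. In the developing mouse lung these fibres are made by smooth muscle of airways and vessels and by interstitial myofibroblasts, beginning before birth, and they mark the tips of the septa that later divide the air sacs. TNRC6A is a partner of Argonaute proteins in silencing by microRNAs.

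The miR-29 family is shown here because elastin mRNA is one of its known targets in mouse and human. The mature sequences are from RefSeq, build GRCm38.p6, written 5′ to 3′, with capitals marking the seed (bases 2 to 8).
mmu-miR-29a-3p: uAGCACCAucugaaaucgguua
mmu-miR-29b-3p: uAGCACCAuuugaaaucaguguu
mmu-miR-29c-3p: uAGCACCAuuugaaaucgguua
The seed was the same in all 3, which differ only after it. *Mir29a* (chr6:31062673-31062694, minus strand, for the mature sequence) had values of 2.59, 2.06 and 1.72 in *Tnrc6a* null lungs and 1.88, 2.06 and 2.45 in WT lungs. *Mir29b-1* (chr6:31063025-31063047, minus strand) had 1.37, 1.83 and 1.00 in *Tnrc6a* null lungs and 0.92, 1.55 and 1.26 in WT lungs. The genotypes overlapped for both, and both probe sets were among the dimmest on the array (signal percentiles 1.48 and 0.0903). Whether they read the mature sequence or a longer transcript was not examined. Values this dim cannot show whether the level of miR-29 differed. Binding sites for miR-29 in the mRNAs of the set were not examined.

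The array medians lay between 4.98 and 5.03 over the 6 lungs. *Tnrc6a* itself stood at 5.45, 5.04 and 5.40 in *Tnrc6a* null lungs and at 7.38, 7.13 and 7.18 in WT lungs, a difference of -1.93 (standard error 0.128, adjusted p = 0.00312 from limma), and leaving out WT replicate 3 raised that adjusted p to 0.0552. The place of its probe set relative to the insertion was not examined. *Tnrc6a* was the 1 gene called at an adjusted p under 0.05 (0.00502% of those tested). Across genes, *Tnrc6a* null replicate 3 was closer to WT replicate 1 (r = 0.9921) than either was to lungs of its own genotype (0.9787 and 0.9827 for *Tnrc6a* null replicate 3, 0.9874 and 0.9882 for WT replicate 1). The tissue matched its label, with *Sftpc*, the surfactant protein gene of alveolar type 2 cells, at 11.76 in *Tnrc6a* null lungs and 11.73 in WT lungs on average, and the lung transcription factor gene *Nkx2-1* at 8.35 in *Tnrc6a* null lungs and 8.43 in WT lungs.

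None of the 8 elastic fibre genes was called in *Tnrc6a* null lungs after adjustment over all genes. The mean was lower in *Tnrc6a* null lungs for 7 and higher for 1, *Fbn2*. Of all genes 50.8% were lower, and of those at or above the median signal, where all 8 elastic fibre genes were found, 66.5%. In 3 of them, *Eln*, *Fbln5* and *Loxl1*, every *Tnrc6a* null lung lay below every WT lung, and in none did every *Tnrc6a* null lung lie above. Over all genes 5.51% lay entirely below and 4.67% entirely above, and 9.43% of those at or above the median signal lay entirely below. The same 3 genes were at an unadjusted p under 0.05 from limma, lower in *Tnrc6a* null lungs, as were 2.96% of all genes and 5.25% of those at or above the median signal, with 2.46% of all genes higher. Of all genes at that p, 54.7% were lower as deposited, 77.2% with each array centred on its median and 31.6% without *Tnrc6a* null replicate 3. Without WT replicate 1 and *Tnrc6a* null replicate 3 these were again the 3 genes, against 8.74% of all genes. *Loxl1* was not at that p after quantile normalization, in eBayes without trend or with a replicate block. Nor was it when *Tnrc6a* null replicate 1 or 3, or WT replicate 2 or 3, was left out. *Fbln5* was not at that p in the methods' t-test or without WT replicate 3. The median difference of the 8 genes was -0.140, beside -0.047 for all genes at or above the median signal.

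**Figure D1:**
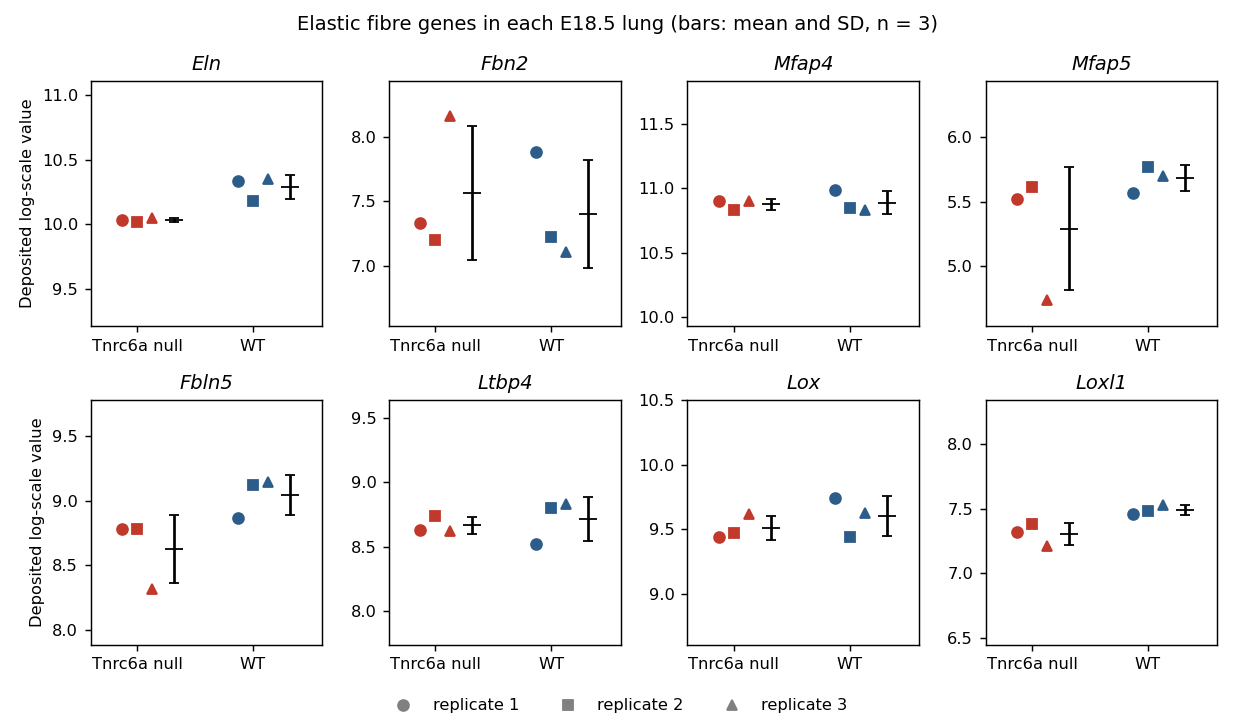
Deposited log-scale value of 8 elastic fibre genes in each lung, with *Tnrc6a* null lungs in red on the left of each panel and WT lungs in blue on the right. Marker shapes stand for replicate numbers, by which the labels do not pair the lungs. Bars are the mean and SD of 3 lungs, and every vertical axis spans the same range. The genotypes are apart for *Eln*, *Fbln5* and *Loxl1*, and a single *Tnrc6a* null lung lies far from the other two for *Fbn2* and *Mfap5*.

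*Eln* encodes tropoelastin, the soluble monomer of the elastic core. Its values were 10.03, 10.02 and 10.05 in *Tnrc6a* null lungs and 10.34, 10.18 and 10.35 in WT lungs. The *Tnrc6a* null lungs lay close together at 10.03 ± 0.02 (SD, n = 3), and the WT lungs were more spread, at 10.29 ± 0.10 (SD, n = 3). The difference was -0.26 (standard error 0.0731, 95% interval -0.42 to -0.09, adjusted p = 0.89 from limma). It ranged from -0.31 without WT replicate 2 to -0.23 without WT replicate 1 or WT replicate 3. The *Eln* probe set was among the brightest 10% of genes, whose median difference was -0.063.

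Microfibrils are the scaffold on which elastin is deposited. *Fbn2* encodes the fibrillin of fetal microfibrils. It stood at 7.33, 7.20 and 8.16 in *Tnrc6a* null lungs and at 7.88, 7.22 and 7.11 in WT lungs. The highest 2 lungs came from different genotypes, *Tnrc6a* null replicate 3 and WT replicate 1, and the other 4 lay close together. The difference of 0.16 was smaller than the spread of either genotype (SD 0.52 in *Tnrc6a* null lungs and 0.42 in WT lungs, n = 3 each, standard error 0.27, adjusted p = 0.952 from limma). It turned to -0.14 without *Tnrc6a* null replicate 3 and grew to 0.40 without WT replicate 1. Without both lungs it was 0.10 (standard error 0.0772, adjusted p = 0.61 from limma).

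*Mfap5* encodes MAGP-2, a small glycoprotein bound to fibrillin. Its values were 5.52, 5.61 and 4.74 in *Tnrc6a* null lungs and 5.57, 5.77 and 5.70 in WT lungs, so that 1 *Tnrc6a* null lung lay far below the rest and the genotypes overlapped among the others. The difference was -0.39 (standard error 0.211, 95% interval -0.87 to 0.09, adjusted p = 0.89 from limma), and it shrank to -0.12 without *Tnrc6a* null replicate 3. *Mfap4*, which encodes a glycoprotein of microfibrils that also binds elastin, was nearly level over the 6 lungs. It had 10.90, 10.83 and 10.90 in *Tnrc6a* null lungs and 10.99, 10.85 and 10.83 in WT lungs. Its difference of -0.01 (95% interval -0.18 to 0.15, adjusted p = 0.986 from limma) changed sign without WT replicate 1 (0.04), among other settings.

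Fibulin-5, the product of *Fbln5*, binds tropoelastin and lysyl oxidase-like 1, and mice without it have loose skin, stiff vessels and enlarged airspaces. *Fbln5* had the largest mean difference of the 8 genes. Its values were 8.78, 8.78 and 8.32 in *Tnrc6a* null lungs and 8.87, 9.12 and 9.15 in WT lungs. All *Tnrc6a* null lungs were lower, by a small margin from WT replicate 1 to the upper 2 of them and by a wide one to *Tnrc6a* null replicate 3. The difference was -0.42 (standard error 0.136, 95% interval -0.73 to -0.11, adjusted p = 0.89 from limma). It was -0.27 without *Tnrc6a* null replicate 3 and -0.51 without WT replicate 1. Without both lungs it was -0.35 with a smaller standard error of 0.0541, and the adjusted p of 0.0659 from limma was the lowest of any elastic fibre gene under any setting. These 2 lungs were singled out from the values themselves and not from a label.

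*Ltbp4* encodes latent TGF-β binding protein 4, which guides fibulin-5 and tropoelastin to microfibrils. It did not separate the genotypes, with 8.63, 8.74 and 8.62 in *Tnrc6a* null lungs and 8.52, 8.80 and 8.83 in WT lungs. The lowest value of all was that of WT replicate 1. The difference was -0.05 (standard error 0.0962, 95% interval -0.27 to 0.17, adjusted p = 0.954 from limma), -0.15 without WT replicate 1 and 0.00 without WT replicate 3.

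The cross-linking enzymes differed from each other in how far the genotypes were apart. *Loxl1*, whose product is brought to elastin by fibulin-5, had 7.32, 7.38 and 7.21 in *Tnrc6a* null lungs and 7.46, 7.48 and 7.53 in WT lungs. The gap between the nearest lungs of the genotypes was small, and so was the spread (SD 0.09 in *Tnrc6a* null lungs and 0.04 in WT lungs, n = 3 each). The difference was -0.19 (standard error 0.0777, 95% interval -0.36 to -0.01, adjusted p = 0.89 from limma), and it ran from -0.23 to -0.14 when 1 lung was left out. *Lox*, the lysyl oxidase of both elastin and collagen, had 9.44, 9.47 and 9.62 in *Tnrc6a* null lungs and 9.74, 9.44 and 9.63 in WT lungs. These values overlapped, and the difference of -0.09 (standard error 0.0943, adjusted p = 0.926 from limma) was -0.03 without WT replicate 1 and -0.17 without WT replicate 2. Whether *Loxl1* and *Lox* differ from each other in their response was not tested.

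The lungs did not deviate in the same way for every gene. In *Tnrc6a* null replicate 3 *Fbn2* stood 0.68 above its mean over all lungs, while *Mfap5* stood at -0.74, *Fbln5* at -0.52 and *Loxl1* at -0.19. In the same lung *Eln* stood at -0.11, close to its -0.13 and -0.14 in the other 2 *Tnrc6a* null lungs. WT replicate 1 was the highest WT lung for *Fbn2* (0.40) and the lowest for *Fbln5* (0.03), *Mfap5* (0.09) and *Loxl1* (0.06). The mean of 13 proliferation genes was 0.203, -0.163 and 0.351 in *Tnrc6a* null lungs and 0.204, -0.292 and -0.302 in WT lungs, so that it was high in the same 2 lungs and also in *Tnrc6a* null replicate 1. All 13 were higher on average in *Tnrc6a* null lungs, as were 9815 of 19938 genes and 3342 of the 9974 at or above the median signal. At an unadjusted p under 0.05 from limma 3 of the 13 were higher, beside 2.46% of all genes and 151 of the 9974, and none was called. In 2 of the 13 every *Tnrc6a* null lung lay above every WT lung, beside 4.67% of all genes and 275 of the 9974. The part of the proliferation genes in the values of the elastic fibre genes was not tested.

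**Figure D2:**
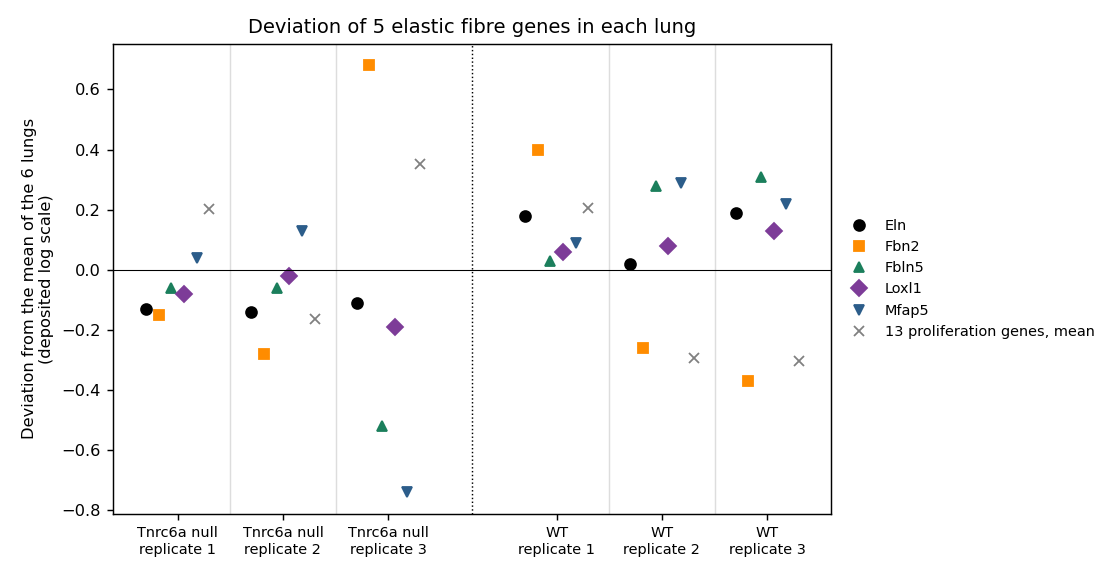
Deviation of 5 elastic fibre genes, and of the mean of 13 proliferation genes, from its average over all 6 lungs (vertical axis, deposited log scale), with *Tnrc6a* null lungs on the left of the dotted line and WT lungs on the right. *Fbn2* is high in *Tnrc6a* null replicate 3 (0.68) and WT replicate 1 (0.40), where *Fbln5* and *Mfap5* are at their lowest for the genotype, and *Eln* lies below 0 in all *Tnrc6a* null lungs and above 0 in all WT lungs.

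Other genes of the microfibril and of elastic fibre assembly differed in both directions. Of 27 measured, 19 (70.4%) were lower and 8 higher in *Tnrc6a* null lungs, a share near the 66.5% of genes at or above the median signal, with a median difference of -0.120, and none was called. At an unadjusted p under 0.05 from limma, 5 were lower and 1 higher, beside 2.96% and 2.46% of all genes. Of genes at or above the median signal 5.25% were lower at that p. The *Tnrc6a* null values were entirely below the WT values for 7 of the 27 and entirely above for 1. The shares of all genes were 5.51% and 4.67%, and 9.43% of those at or above the median signal were entirely below. The 1 gene higher at that p was *Mfap2*, which encodes MAGP-1, the other member of the MAGP pair. It had 9.56, 9.33 and 9.78 in *Tnrc6a* null lungs and 9.29, 9.10 and 9.25 in WT lungs, with every *Tnrc6a* null lung above every WT lung (difference 0.34, standard error 0.115, adjusted p = 0.89 from limma). It was highest in *Tnrc6a* null replicate 3 among the null lungs and in WT replicate 1 among the WT lungs, as *Fbn2* was. Its direction was opposite to that of *Mfap5*, and the contrast between them was not tested. *Itgb5*, an integrin chain that pairs with the αv chain to bind matrix proteins, had 7.53, 7.74 and 7.58 in *Tnrc6a* null lungs and 7.75, 8.15 and 8.04 in WT lungs. For *Mmrn1*, a gene of the EMILIN family expressed in endothelium and platelets, the values were 6.15, 6.30 and 5.47 in *Tnrc6a* null lungs and 6.37, 6.79 and 6.48 in WT lungs. *Adamtsl2*, whose product binds fibrillin and latent TGF-β binding protein 1, averaged 7.82 ± 0.11 in *Tnrc6a* null lungs and 8.03 ± 0.05 in WT lungs (SD, n = 3 each). In all 3 the lungs of the genotypes were apart, with differences of -0.36, -0.57 and -0.21 and an adjusted p of 0.89 from limma.

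**Figure D3:**
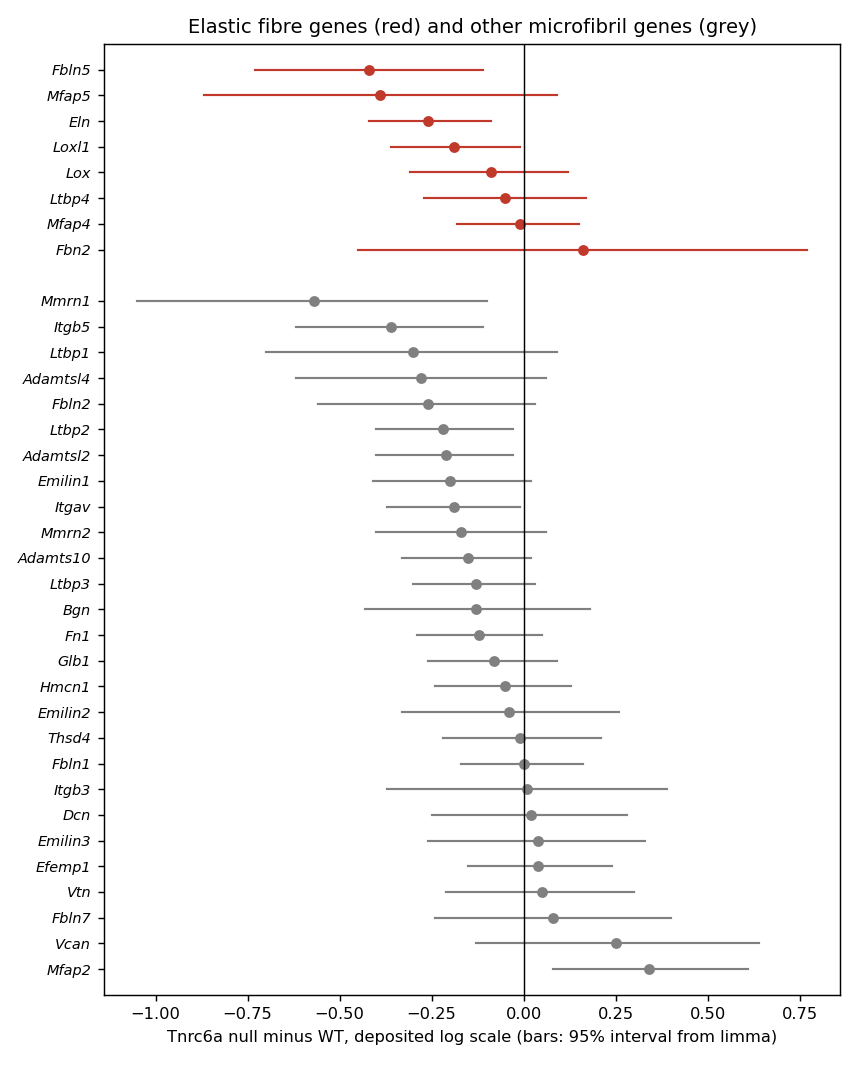
Difference between *Tnrc6a* null and WT lungs on the deposited log scale for 8 elastic fibre genes (red, above) and 27 other microfibril and elastic fibre genes (grey, below), with 95% intervals from limma that are not adjusted for the number of genes. The interval excludes 0 for *Fbln5*, *Eln* and *Loxl1* among the 8, and *Mfap2* lies farthest to the right of the 27.

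Among the other lysyl oxidases and the genes that supply them with copper, 3 of 6 were lower and 3 higher, with a median difference of 0.008 and none at an unadjusted p under 0.05. *Atp7a*, the copper pump that loads secreted enzymes, had the largest difference of these, at -0.18. The 5 fibrillar collagen genes had differences between -0.11 and -0.01, and the genotypes overlapped in each. Of 15 enzymes that degrade elastin or their inhibitors, 11 (73.3%) were lower and 4 higher (median -0.127). Of all genes 50.8% were lower, and of those at or above the median signal 66.5%. At an unadjusted p under 0.05 from limma 4 were lower and 1 higher, beside 2.96% and 2.46% of all genes, and none was called. *Timp2*, an inhibitor of metalloproteinases, had the smallest p of these. It stood at 7.85, 7.78 and 7.50 in *Tnrc6a* null lungs and at 7.96, 8.22 and 8.23 in WT lungs (difference -0.43, standard error 0.115, adjusted p = 0.89 from limma). *Mmp2*, the gelatinase it helps to activate, had a difference of -0.25. The 1 higher gene was the metalloproteinase *Mmp7*, at 0.29. TGF-β raises elastin expression, and of 15 measured genes of TGF-β signalling and other regulators of elastin, 11 were lower and 4 higher (median -0.083), 2 of the lower ones at an unadjusted p under 0.05 and none called. These 2 were the ligand *Tgfb3*, at 6.76, 6.91 and 6.93 in *Tnrc6a* null lungs and 7.10, 7.01 and 7.25 in WT lungs, and *Ccn2*, a target of the pathway that encodes a matricellular protein, at -0.30.

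Genes of the cells that make elastic fibres were counted in the same way. Of 14 myofibroblast and smooth muscle genes 10 (71.4%) were lower (median -0.105), and of 12 fibroblast and mesenchyme genes 10 (83.3%) were lower (median -0.103), beside 66.5% and a median of -0.047 for genes at or above the median signal. None was called in either list. The mean of the fibroblast and mesenchyme genes was -0.077, -0.034 and -0.068 in *Tnrc6a* null lungs and 0.042, 0.095 and 0.042 in WT lungs, without overlap. For the myofibroblast and smooth muscle genes it was -0.030, -0.077 and -0.051 in *Tnrc6a* null lungs and 0.147, -0.019 and 0.030 in WT lungs, apart by a narrow gap. The mean of all genes at or above the median signal was -0.009, -0.009 and -0.050 in *Tnrc6a* null lungs. In WT lungs that mean was -0.009, 0.043 and 0.035. The mean of the 8 elastic fibre genes was -0.068, -0.058 and -0.109 in *Tnrc6a* null lungs and 0.110, 0.046 and 0.080 in WT lungs. The smallest p of the mesenchymal lists belonged to *Pdgfrb*, a receptor of pericytes and fibroblasts, with 8.57, 8.72 and 8.77 in *Tnrc6a* null lungs and 8.86, 9.03 and 8.99 in WT lungs, and to *Dpt*, which encodes the matrix protein dermatopontin, with 8.85, 8.91 and 8.38 in *Tnrc6a* null lungs and 9.05, 9.12 and 9.18 in WT lungs. *Hhip*, a gene of airway smooth muscle and myofibroblasts, was the 1 gene of its list at an unadjusted p under 0.05 from limma, at -0.28. The 4 higher genes of that list were *Actg2* (0.28), *Acta2* (0.05), *Cnn1* (0.05) and *Smtn* (0.01), none at that p. The part of cell numbers in the values of *Eln*, *Fbln5* and *Loxl1* was not tested.

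Markers of the other cell types in whole lung moved to different degrees. Their counts stand beside 50.8% of all genes that were lower, and 66.5% of those at or above the median signal. The mean of 10 endothelial genes lay between -0.149 and -0.007 in *Tnrc6a* null lungs and between -0.029 and 0.110 in WT lungs, so that the genotypes overlapped, with 8 of 10 lower. In 3 of the 10 every *Tnrc6a* null lung lay below every WT lung, beside 9.43% of genes at or above the median signal. At an unadjusted p under 0.05 from limma 3 of the 10 were lower, beside 5.25% of genes at or above the median signal. Alveolar type 1 genes were lower in 8 of 8 (median -0.223). Their mean lay between -0.235 and 0.006 in *Tnrc6a* null lungs and between 0.011 and 0.179 in WT lungs, apart by a narrow gap. In 4 of these 8 genes every *Tnrc6a* null lung lay below every WT lung, beside 9.43% of genes at or above the median signal, where all 8 were found. At an unadjusted p under 0.05 from limma 3 were lower, beside 5.25% of genes at or above the median signal. Macrophage genes were lower in 8 of 8 (median -0.202), between -0.354 and 0.027 in *Tnrc6a* null lungs and -0.172 and 0.283 in WT lungs. In 1 of the macrophage genes every *Tnrc6a* null lung lay below every WT lung, beside 5.51% of all genes. At an unadjusted p under 0.05 from limma 2 of them were lower, beside 2.96% of all genes. No gene of the lists that follow was at that p or had its genotypes apart. Alveolar type 2 genes were lower in 4 of 8 (median -0.028). Cartilage genes, whose tissue also holds microfibrils, were lower in 3 of 10 (median 0.055), between -0.139 and 0.152 in *Tnrc6a* null lungs and -0.147 and 0.052 in WT lungs. Cardiac muscle genes were lower in 6 of 7, between -0.360 and 0.294 in *Tnrc6a* null lungs and -0.011 and 0.199 in WT lungs, and mesothelial genes in 3 of 5, between -0.093 and 0.069 in *Tnrc6a* null lungs and -0.121 and 0.141 in WT lungs. None of the genes on these lists was called, and the part of these cells in the elastic fibre values was not tested.

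The genes whose 6 values followed those of *Eln* most closely, of 9973 others at or above the median signal, were *Dlst*, *Dctn4*, *Cdh1*, *Stt3b* and *Slc44a1*. Their Pearson correlations with *Eln* over the 6 lungs were 0.987, 0.986, 0.966, 0.965 and 0.964, and the Spearman correlations 0.928, 0.886, 0.829, 0.886 and 0.812. They were picked as the highest of many, over lungs that share an array platform and whole-lung RNA, and no p is given for them. *Dlst*, a subunit of a mitochondrial dehydrogenase complex, had 7.45, 7.47 and 7.49 in *Tnrc6a* null lungs and 7.60, 7.53 and 7.60 in WT lungs. None of the 5 encodes a component of the elastic fibre, and *Cdh1* encodes E-cadherin, the adhesion molecule of epithelium.

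The differences depended on the treatment of the values to unequal degrees. *Eln* stayed between -0.31 and -0.23 over all 16 alternatives, *Loxl1* between -0.23 and -0.14 and *Fbln5* between -0.51 and -0.27, and in none of them was an elastic fibre gene called. *Mfap5* ran from -0.55 to -0.12 and *Fbn2* from -0.14 to 0.40.

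**Figure D4:**
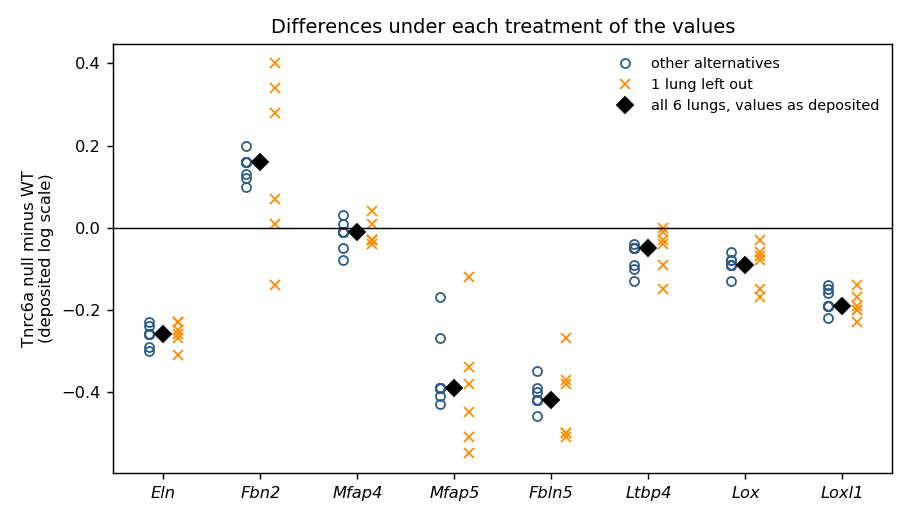
Difference between *Tnrc6a* null and WT lungs on the deposited log scale for 8 elastic fibre genes, with all 6 lungs and values as deposited (black diamonds), with 1 lung left out (crosses) and under the other alternatives (open circles). *Eln*, *Fbln5* and *Loxl1* stay below 0 throughout, and *Fbn2* reaches from -0.14 to 0.40.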

How the data were processed

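RNA of single E18.5 lungs was hybridised to Affymetrix Mouse Gene 1.0 ST arrays. The authors deposited values for 35045 probe sets per lung, log2 by the labels. MAS5 is named in the submitters' processing notes without a version or settings, and scanner files were not used. The array's annotation names no genome build, so no coordinates of its probe sets are given, and those of miR-29 are RefSeq's.

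Probe sets with 1 gene symbol (21789) were kept, and 21698 of them took the current symbol of their Entrez ID from an annotation of assembly GRCm38.p6. The probe set with the brightest mean stood for a gene. The genotypes were compared by lmFit and eBayes with trend (limma 3.58.1, R 4.3.3) as *Tnrc6a* null minus WT. P-values of 19938 genes were adjusted by Benjamini-Hochberg, at a threshold of 0.05. The procedure was tested on simulated data. Tables and plots were made with Python 3.11.15, pandas 2.3.3, scipy 1.17.1 and matplotlib 3.10.9. Lists are described by counts and medians, without a test.

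Groups and replicate numbers came from the sample titles. Each lung came from 1 embryo, and 3 lungs a genotype limit the precision. The 10 genes and the lists were chosen with earlier results of these data known, and miR-29 after the values were seen. Named besides the set were *Tnrc6a*, up to 4 genes of each list with the smallest p, and the 5 genes most like *Eln*. *Mmp7*, *Sftpc*, *Nkx2-1*, *Actg2*, *Acta2*, *Cnn1* and *Smtn* were added after their values were seen. Alternatives were quantile normalization, median centring, the mean of probe sets, a filter on dim genes, eBayes without trend, robust eBayes, array weights, a replicate block, the methods' t-test, and leaving out each lung or WT replicate 1 with *Tnrc6a* null replicate 3.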

Additional observations from a re-analysis of the deposited data

How the results depend on the processing

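Of 128 values of the 8 elastic fibre genes under 16 alternatives, 122 kept their direction, none was called, and 6 turned sign. *Mfap4* turned to 0.01 with array weights and to 0.03 without WT replicate 1 and *Tnrc6a* null replicate 3, and ran from -0.04 to 0.04 with 1 lung left out. *Fbn2* ran from -0.14 to 0.40 and *Ltbp4* from -0.15 to 0.00 with 1 lung left out, the last just above 0 without WT replicate 3. The median of the 8 genes was -0.177 with median centring and -0.183 to -0.123 with 1 lung left out. The number of genes called was 2 with array weights, 0 with the methods' t-test (1102 at an unadjusted p under 0.05), 23 without both lungs named above and 0 to 1 with 1 lung left out, 0 without WT replicate 3. At an unadjusted p under 0.05 there were 1081 genes, 686 in a fit of only the genes at or above the median signal, 2447 with array weights, 2895 without both lungs and 614 to 1730 with 1 lung left out (1723 without *Tnrc6a* null replicate 3, 1730 without WT replicate 1, 614 without WT replicate 2 and 667 without WT replicate 3). The share of these genes that was lower was 54.7% as deposited, 77.2% with median centring, 37.6% in eBayes without trend and 31.6% to 74.2% with 1 lung left out, lowest without *Tnrc6a* null replicate 3 and highest without WT replicate 1 (35.7% without WT replicate 2, 41.5% without WT replicate 3). *Tnrc6a* kept its difference of -1.93 with the methods' t-test without being called (adjusted p = 0.551), and ran from -2.01 to -1.8 with 1 lung left out. With 1 lung left out, 1 to 4 elastic fibre genes were at an unadjusted p under 0.05, *Eln* alone without WT replicate 3 and *Mfap5* besides the 3 without *Tnrc6a* null replicate 2. Of 288 medians of the other lists, 275 moved by less than the spread between lungs. The replicate block left 1 gene called and 822 at an unadjusted p under 0.05. Across genes, the deviations of same-numbered lungs from their genotype means correlated at -0.295, 0.361 and -0.162. The labels do not pair the lungs by number. These correlations cannot settle whether they are paired, as the deviations within a genotype cancel out. The correlation of *Tnrc6a* null replicate 3 with WT replicate 1 was 0.538. Signal over background was not measured, which limits what *Mfap5*, the dimmest of the 8, can show. The causes of these changes were not tested.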
